A study of Drosophila melanogaster with 11 samples.

Results

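Nicotine was added to the food of flies that also received paraquat, and the transcripts of their heads were compared with those of flies on paraquat alone. The comparison uses 5 of the 11 arrays of the study, 3 of the joint exposure and 2 of paraquat alone, and it covers 9104 of 18952 probe sets. The joint group ate food with nicotine at 0.1 mg/ml during the first 10 days and with the same nicotine plus 5 mM paraquat during the last 6 days. The paraquat group ate nicotine-free food and had 5 mM paraquat in it during the last 6 days. Nicotine given without paraquat was compared in the same way between a nicotine group (0.1 mg/ml throughout, 3 arrays) and a control group (plain food, 3 arrays), both also of 16 days in all. All flies were w1118 females collected within a day of eclosion, a white-eyed laboratory strain, and each array holds the pooled heads of 20 of them. The submitters left out a degraded paraquat sample, which was not analysed here. The labels do not say whether samples within a group were reared apart, so each p-value reflects just the variation seen among these pools of heads.

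Nicotine is an agonist of nicotinic acetylcholine receptors, the channels that carry fast excitatory transmission in the insect brain, and insects break it down partly through cytochrome P450 and UDP-glycosyltransferase enzymes. Paraquat is a herbicide that cycles between redox states inside cells and passes electrons to oxygen, which makes superoxide. It is widely used in flies and rodents to model the loss of dopaminergic neurons in Parkinson's disease, and the series pairs it with nicotine for that purpose.

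The tissue was checked against marker genes of the head. Photoreceptor markers (trp, inaD and Arr2) had mean log2 values of 13.84 to 14.64 over the 11 arrays, neuronal markers 8.51 to 9.92, glial markers 11.02 to 12.28 and head fat body and yolk markers 13.96 to 15.42. Of 5 ovary and germline markers on the array, 2 stayed below log2 4 everywhere, and the mean of the 5 was highest in joint replicate 1 (3.96) and nicotine replicate 1 (4.65) against 2.28 to 2.68 on the other arrays. Joint replicate 1 also stood apart over all probe sets, with a mean correlation of 0.914 with the other arrays, which had 0.943 to 0.965 themselves. It had 9001 probe sets above log2 4, while the others had 8729 to 8832. The median SD within the joint group was 0.33 log2, compared with 0.16 in the paraquat group, 0.25 in the nicotine group and 0.27 in the control group.

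No probe set passed the test in the comparison of the joint exposure with paraquat alone. In the limma fit 0 of 9104 probe sets (0%) had a Benjamini-Hochberg adjusted p below 0.05, and the smallest adjusted p was 0.962. At an unadjusted p below 0.05 there were 275 probe sets (3.02%), 103 of them higher (1.13%) and 172 lower (1.89%) in the joint group. With each array centred on its median the same count was 240, with 129 higher and 111 lower. The median difference over all probe sets was -0.06 log2, and the median size of a difference was 0.21, below the median standard error of 0.30. A log2 difference of 1 is a 2-fold difference in the deposited values. Differences of at least 2 log2 were mostly on the high side, 86 higher and 16 lower, while those of at least 1 log2 numbered 207 higher and 194 lower.

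The call counts rested on single joint arrays. Without joint replicate 3 the fit called 32 probe sets (28 higher, 4 lower), and without joint replicate 1 it called 1. The latter was Peritrophin-15b, a gene of the chitin-binding peritrophin family (limma adjusted p = 0.00506). It lay at 2.11 on both paraquat arrays and at 2.22, 4.12 and 4.01 on the joint arrays, so the 2 joint arrays kept only just exceeded log2 4 and no fold is given. Those 2 arrays alone meet the low-value filter, so the call may not be independent of it. The 32 probe sets called without joint replicate 3, of which a few are named after their values were seen, include the maltase gene Mal-A6 (6.44 log2, limma adjusted p = 0.00512). They also include the Jonah protease genes Jon99Ci and Jon25Bi and the midgut gene mex1, but these 3 passed the low-value filter only through the joint arrays, so their calls are not independent of that filter. The same may hold for others, as passage of the filter was not checked for most of the 32. CG9672 and CG3739, for example, lay at 2.11 on both paraquat arrays and on joint replicate 3. In joint replicate 3 itself, Jon99Ci lay at 2.41 and Jon25Bi at 2.11, level with the paraquat arrays.

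The 12 genes named with the smallest p among those higher on every joint array than on both paraquat arrays include a metallothionein gene (MtnC, with the smallest p) and 3 genes known from the gut (mesh, Mal-A1 and mex1), and none of the 12 was called. Probe sets with all joint arrays above both paraquat arrays numbered 456 (5.01%), and those with a difference of at least 1 log2 as well numbered 82 (0.901%). Joint replicate 1 was the highest joint array in 62 of these 82. Values in paraquat replicates 2 and 3 and then joint replicates 1, 2 and 3 are given in that order below. MtnC, which encodes a metallothionein, a small cysteine-rich protein that binds metal ions, had log2 values of 2.39 and 3.64 with paraquat and 9.76, 8.48 and 6.36 with both. It was at least 18.4-fold higher when values below log2 4 were set to log2 4 (5.19 ± 1.02 log2 by limma, SE, unadjusted p = 0.000567, adjusted p = 0.962). The joint arrays stood well apart from each other and from paraquat, and the control arrays (2.50 to 4.50) and nicotine arrays (3.46 to 5.65) overlapped. Of the 14 metal-handling genes tested, MtnC was the only one above 1 log2, and the list median was -0.09. The related MtnB and MtnA differed by 0.07 and -0.07 log2.

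Maltases split maltose and are made in the midgut, and Mal-A1 was at 9.31 and 8.89 with paraquat and at 15.05, 12.72 and 10.98 with both (3.81 ± 1.05 log2, limma adjusted p = 0.962). Its control arrays lay between 8.39 and 9.22. The small midgut protein gene mex1 was at 2.16 and 2.27 with paraquat and at 8.23, 7.21 and 3.46 with both, at least 5.58-fold higher, though joint replicate 3 stayed below log2 4. The gene mesh, whose product builds the smooth septate junctions of gut epithelium, went from 5.38 and 6.29 to 8.01, 7.49 and 6.91 (1.63 ± 0.41 log2). In each of these genes joint replicate 1 was highest and joint replicate 3 lowest.

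CG31104 and CG11878 belong to the ecdysteroid kinase-like family, named after kinases that phosphorylate steroid hormones. CG31104 was at 5.09 and 6.29 with paraquat and at 12.24, 9.94 and 7.87 with both (4.33 ± 1.13 log2). CG11878 was at least 2.34-fold higher, and its joint arrays (6.94, 4.28 and 4.45) all exceeded its paraquat arrays (2.45 and 2.57). Of the remaining 6, Hr38 is described together with its nicotine arrays, and the other 5 are CG12780, CG5107, CG5096, CG13482 and CG18480. CG12780 differed by 4.78 log2 (at least 12.7-fold), CG5107 by 3.67, CG5096 by 3.63 (at least 6.60-fold), CG13482 by 3.56 and CG18480 by 2.43. Joint replicate 1 was the highest joint array in 12 of the 12 named genes and joint replicate 3 the lowest in 10. CG5096, CG11878 and mex1 passed the low-value filter only through the joint arrays, so some difference was built into their selection.

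**Figure D1:**
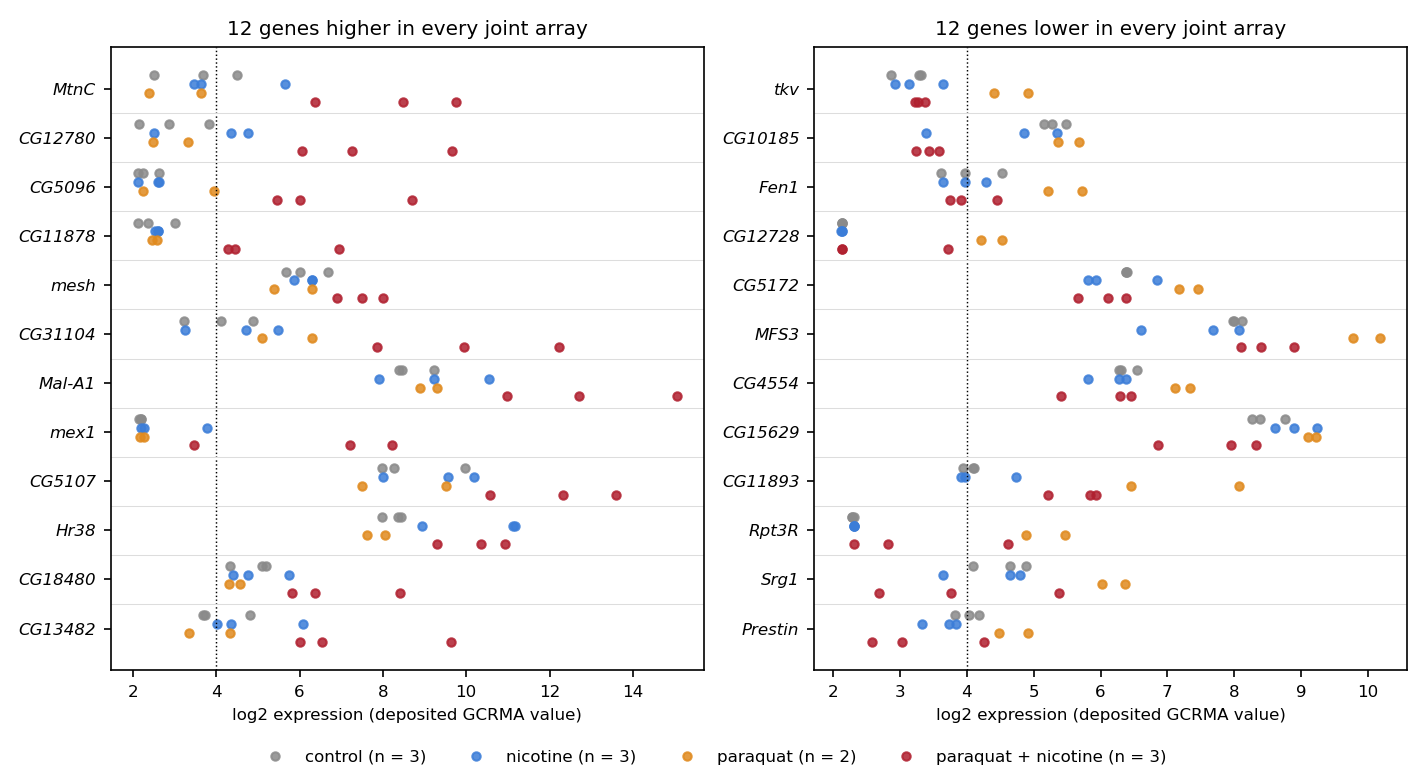
Log2 expression (deposited GCRMA value, horizontal axis) of the 12 genes named as higher (left) and the 12 named as lower (right) in the joint group; each point is 1 array and colours give the 4 groups. The dotted line marks log2 4; in both panels the red joint points (n = 3) lie to 1 side of the orange paraquat points (n = 2), and none of the 24 genes was called.

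Genes of the digestive tract were compared as a list of maltases, Jonah proteases, trypsins and related genes, chosen with earlier results of these data known. Of 39 members on the array, 20 passed the low-value filter, and 6 of these passed only through the joint arrays, so the values below describe the list and do not support it. The 6 are Jon25Bi, Jon99Ci, Mal-A2, Mal-A3, Mal-A7 and Mal-A8. Differences were above 0 in 17 of the 20 tested members, against 39.1% of all genes, and 11 lay higher on every joint array, against 5.15% of the 7316 genes with 1 probe set each. The median difference was 4.25 log2, against -0.07 over all genes, and was 3.76 with values below log2 4 set to log2 4. None was called, and 8 were higher at an unadjusted p below 0.05, against 1.22% of all genes (2.01% of all genes were lower at that p). In pooled heads, more cells of a type and more RNA per cell cannot be told apart.

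The mean log2 value of the 20 genes was 5.81 and 6.36 on the paraquat arrays and 11.25, 10.13 and 7.76 on the joint arrays. It was 7.10, 5.32 and 7.19 on the control arrays and 7.04, 4.98 and 7.76 on the nicotine arrays. Joint replicates 1 and 2 were thus above every other array, while joint replicate 3 equalled nicotine replicate 3. Without joint replicate 1 the median difference was 3.45 log2. The part of digestive tract RNA in the differences of the named genes above was not tested.

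Individual members followed that order of arrays to different degrees. The trypsin gene alphaTry was at 8.83 and 8.68 with paraquat and at 13.52, 13.17 and 10.35 with both. Its control arrays ran from 6.96 to 10.64 and its nicotine arrays from 4.63 to 10.57, so joint replicate 3 lay within the range of flies without paraquat. The Jonah protease gene Jon65Aiii was at 7.22 and 10.94 with paraquat and at 13.41, 14.10 and 12.39 with both, and its control values spread from 6.44 to 12.63. Jon99Ci was below log2 4 on every array except joint replicates 1 and 2, which had 11.08 and 10.58. The maltase gene Mal-A6 was at 5.45 and 5.01 with paraquat and at 12.55, 10.79 and 6.43 with both, at a difference of 4.69 log2. Mal-A8 was at least 13.1-fold higher with values of 11.59, 6.96 and 4.58 on the joint arrays. It passed the low-value filter only through these arrays, so some difference was built into its selection. The 3 members below 0 were Ser7 (-0.30), Mal-B2 (-0.26) and Mal-A5 (-0.08), all of them above log2 9 on every array. Jonah proteases, trypsins and maltases are families of similar genes, and their probe sets may share signal.

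**Figure D2:**
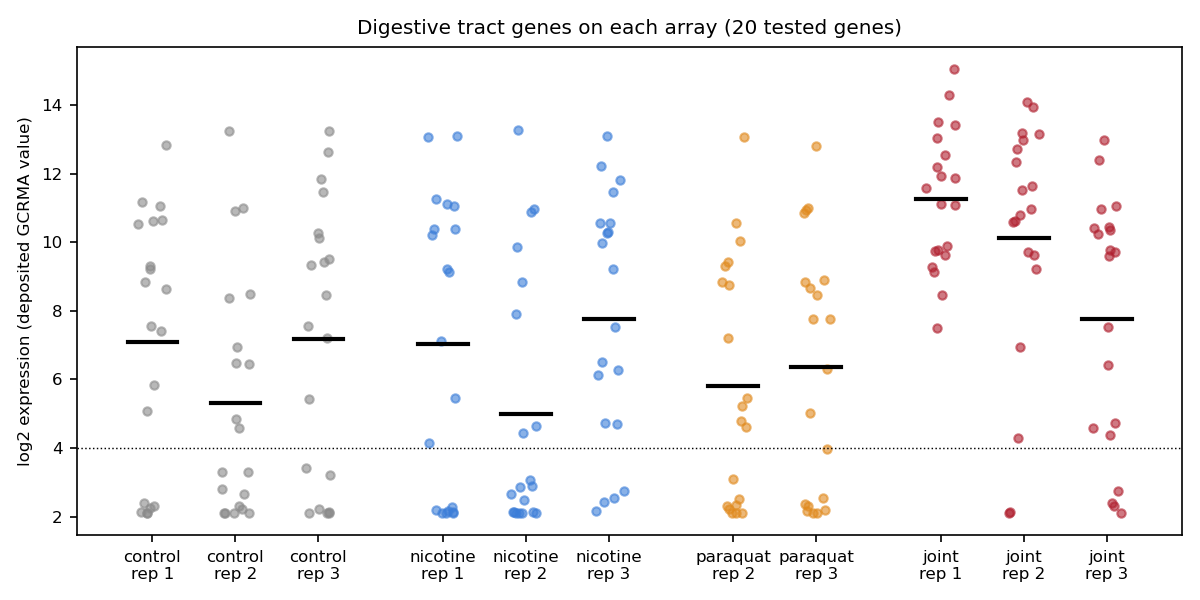
Log2 expression (vertical axis) of the 20 tested digestive tract genes on each of the 11 arrays (horizontal axis); each point is 1 gene and the black bar is their mean. The means of joint replicates 1 and 2 (11.25 and 10.13) exceed those of all other arrays, which run from 4.98 to 7.76. The low-value filter was passed only through the joint arrays by 6 of the 20 genes.

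Hr38 encodes the only NR4A nuclear receptor of the fly and is a gene switched on by neuronal activity. It was higher on every joint array than on both paraquat arrays, with log2 values of 7.63 and 8.04 on paraquat and 10.94, 9.31 and 10.35 with nicotine added (2.37 ± 0.67 log2, limma unadjusted p = 0.00567, adjusted p = 0.962). Without paraquat it was at 7.98, 8.37 and 8.44 on the control arrays and at 11.12, 11.17 and 8.93 on the nicotine arrays (2.14 log2, unadjusted p = 0.00536, adjusted p = 1). All 6 nicotine arrays therefore lay above all 5 arrays without nicotine. The second Hr38 probe set had the same order of arrays, with differences of 1.39 log2 with paraquat and 1.95 without. Without joint replicate 1 the difference with paraquat was 2.0 log2. The other 4 activity-regulated genes were stripe (sr), with 0.53 log2 (0.16 without joint replicate 1) and higher on every joint array, cabut (cbt, -0.25), and the AP-1 subunit genes kay and Jra, which had overlapping groups.

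Over all probe sets, 12 (0.132%) had the 6 nicotine arrays above the 5 nicotine-free arrays and 8 (0.0879%) had them below. Centring each array on its median gave 14 and 16. The 2 Hr38 probe sets had the largest differences among the 12. The others, named after their values were seen, included CG31323 (0.75 log2 with paraquat and 0.96 without), CG34434 (0.75 and 0.49), the G protein subunit gene Galphaf (0.58 and 0.27) and the autophagy protease gene Atg4a (0.14 and 0.14). The 8 lower ones included Pex16 (-0.54 and -0.34), which encodes a peroxisome assembly factor, Taz (-0.63 and -0.84), the cardiolipin acyltransferase gene, and Sply (-0.36 and -0.23), which encodes sphingosine phosphate lyase.

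**Figure D3:**
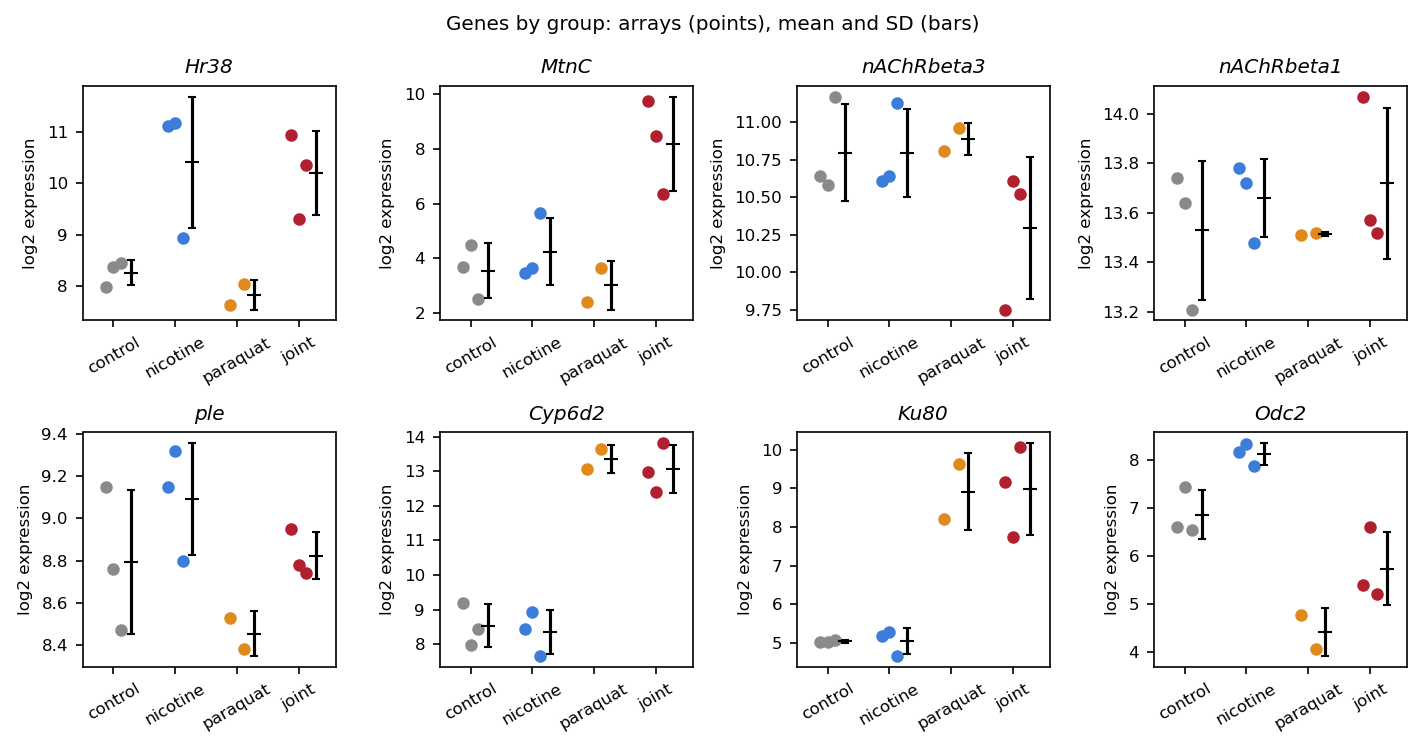
Log2 expression of Hr38, MtnC, nAChRbeta3, nAChRbeta1, ple, Cyp6d2, Ku80 and Odc2 by group; points are arrays and bars give the mean and SD (n = 3, 3, 2 and 3). Each panel has its own vertical axis, which does not start at 0; Hr38 is higher in both nicotine groups, and Cyp6d2 and Ku80 stay high with paraquat whether or not nicotine was given.

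The 12 genes named as lower were smaller differences, of -1.18 to -2.25 log2, and none was called. Probe sets with every joint array below both paraquat arrays numbered 1206 (13.2%), and with a difference of at least 1 log2 they numbered 119 (1.31%). Joint replicate 1 was the lowest joint array in 102 of these 119. With centred arrays the 456 above and 1206 below became 811 and 768. The probe set with the smallest p of the comparison named tkv, a type I receptor for the BMP ligand Dpp. It was at 4.41 and 4.92 with paraquat and at 3.27, 3.23 and 3.38 with both, which makes it at least 1.59-fold lower (-1.38 ± 0.26 log2, limma unadjusted p = 0.00041, adjusted p = 0.962). The control arrays of tkv ran from 2.87 to 3.32, near the joint values, and its other probe set, with a mean level of 8.90, differed by 0.02. In the probe set of smallest p, only the 2 paraquat arrays reached log2 4. That probe set passed the low-value filter only through them, so some difference was built into its selection.

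Fen1, the flap endonuclease of DNA replication and base excision repair, was at 5.73 and 5.21 with paraquat and at 3.75, 4.45 and 3.92 with both (-1.43 ± 0.33 log2). Its control arrays lay between 3.61 and 4.53, so the joint group was within the control range. Rpt3R, a paralogue of a proteasomal ATPase gene, was at 4.88 and 5.47 with paraquat, at 2.82, 2.32 and 4.62 with both, and between 2.28 and 2.32 on the control arrays. MFS3, which encodes a transporter of the major facilitator superfamily, was at 9.78 and 10.18 with paraquat and at 8.40, 8.10 and 8.89 with both, while its control arrays lay between 7.98 and 8.12. The same 2 paraquat arrays stand on the high side of each of these differences.

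Among the others, CG10185 was at least 2.87-fold lower (5.36 and 5.68 against 3.44, 3.24 and 3.59), and its control arrays were at 5.16 to 5.49, level with paraquat. The ecdysteroid kinase-like gene CG11893 was at 6.45 and 8.07 with paraquat and at 5.84, 5.21 and 5.93 with both (-1.60 log2), above its control range of 3.94 to 4.11. CG12728 was at least 1.30-fold lower, and was called without joint replicate 3 (limma adjusted p = 0.000786), as was Rpt3R (adjusted p = 0.00185), in both cases with the remaining joint arrays below log2 4. CG12728 and Rpt3R passed the low-value filter only through the paraquat arrays, so their calls are not independent of that filter. Srg1 (-2.25 log2), CG15629 (-1.46), Prestin (-1.41), CG5172 (-1.27) and CG4554 (-1.18) complete the 12. Prestin encodes an anion transporter whose mammalian relative drives the outer hair cells of the ear.

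The receptor subunits on which nicotine acts showed no called difference. Of 9 nicotinic subunit genes on the array 7 were tested, and nAChRalpha1 and nAChRalpha5 did not pass the low-value filter. Their median difference was 0.07 log2 and turned to -0.14 without joint replicate 1. The subunit nAChRbeta3 was at 10.81 and 10.96 with paraquat and at 9.75, 10.61 and 10.52 with both, below paraquat on every joint array (-0.59 ± 0.31 log2, limma unadjusted p = 0.0837, and -0.32 without joint replicate 1). The subunit nAChRbeta1 had the opposite order, 13.51 and 13.52 against 14.07, 13.57 and 13.52, with its closest arrays equal at 13.52 and a difference of 0.20 (0.03 without joint replicate 1). The alpha subunits nAChRalpha2 (0.20), nAChRalpha3 (0.07), nAChRalpha4 (0.03) and nAChRalpha7 (-0.37), and nAChRbeta2 (0.17), had overlapping groups. Genes of acetylcholine synthesis, release and muscarinic reception had a median of 0.09, and mAChR-B, a muscarinic receptor gene, was at 8.43 and 8.37 with paraquat and at 9.03, 8.93 and 8.95 with both (0.57 log2, unadjusted p = 0.181).

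Genes of nicotine breakdown were not called either. Ugt35C1, also named Ugt86Dd and known from natural variation in nicotine resistance, was at 4.50 and 4.26 with paraquat and at 4.47, 5.83 and 4.48 with both (0.55 ± 0.60 log2). Cyp28d1, a cytochrome P450 gene from the same mapping work, was at 12.59 and 12.66 against 11.68, 13.16 and 12.79 (-0.08 log2). Cyp12d1-d was at least 1.67-fold higher in its group mean, Cyp6g1, known for insecticide resistance, differed by -0.27 log2, and all 4 had overlapping groups. Cyp12d1-d passed the low-value filter only through the joint arrays, so some difference was built into its selection. Among 58 cytochrome P450 genes tested, 27 differences were above 0 and 31 below, with a median of -0.06 that became 0.02 with centred arrays. Every joint array was above paraquat in 5 of these and below in 4, against 5.15% and 13.8% of all genes. Cyp308a1, with the smallest p (limma unadjusted p = 0.00807), was at least 1.12-fold lower, its joint arrays all being below log2 4. It passed the low-value filter only through the paraquat arrays, so some difference was built into its selection. Cyp6d2, the P450 gene that was high with paraquat (13.06 and 13.64, against 7.97 to 9.19 in control), stayed high with nicotine added, at 12.97, 12.41 and 13.81 (-0.29 ± 0.51 log2).

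Other detoxification families had small median differences and no calls. Glutathione S-transferases, which conjugate glutathione to electrophiles, had 23 of 30 differences below 0 (18 with centred arrays), against 60.9% of all genes. Their median of -0.19 became -0.05 without joint replicate 1. GstE11 (-0.88 log2, -0.57 without joint replicate 1, unadjusted p = 0.0211) and GstT2 (-0.50, limma unadjusted p = 0.0471) had every joint array below paraquat. Of the 30, 4 lay below in this way and 1 above, against 13.8% and 5.15% of all genes. UDP-glycosyltransferases had a median of -0.20 over 16 genes, esterases -0.30 over 8, xenobiotic transporters 0.21 over 5 and the 3 aldehyde oxidase and xanthine dehydrogenase genes -0.13. Without joint replicate 1 these 4 medians were -0.02, -0.10, -0.02 and 0.08. Ugt301D1 (-1.06 log2) and the esterase gene Jhedup (-0.75) were below paraquat on every joint array. So were 3 of the 16 UDP-glycosyltransferases and 3 of the 8 esterases in all, against 13.8% of all genes, and 0 lay above. The 30 ecdysteroid kinase-like genes had 15 differences on each side of 0, a median of 0.03 (-0.08 without joint replicate 1) and a range of -1.60 to 4.33 log2.

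Genes of dopamine neurons and of Parkinson's disease, which the series names as its model, had no called difference. The tyrosine hydroxylase gene ple, which makes the first enzyme of dopamine synthesis, was at 8.53 and 8.38 with paraquat and at 8.95, 8.78 and 8.74 with both. Every joint array was higher, by 0.37 ± 0.23 log2 on average (limma unadjusted p = 0.147), and control arrays ran from 8.47 to 9.15. The dopa decarboxylase gene Ddc differed by 0.00 ± 0.23 log2, the vesicular transporter gene Vmat by 0.13 and the dopamine transporter gene DAT by 0.58 ± 0.46 (0.11 without joint replicate 1), each with overlapping groups. The 10 monoamine pathway genes had a median of 0.02 and the 6 monoamine receptors 0.06 (-0.02 and -0.05 without joint replicate 1), where Dop1R1 had the largest value, 0.72, and 0.03 without joint replicate 1. Of the 8 tested orthologues of Parkinson's disease genes, 7 were below 0 (60.9% of all genes were), which became 4 with centred arrays. Every joint array was above paraquat in 1 of the 8 and below it in 1, against 5.15% and 13.8% of all genes. The lower one was iPLA2-VIA, a phospholipase gene (11.13 and 11.37 against 10.70, 10.64 and 10.96, -0.48 ± 0.18 log2, limma unadjusted p = 0.0236). Pink1 (-0.36) and dj-1beta (-0.27) had overlapping groups and were at -0.23 and -0.09 without joint replicate 1.

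Antioxidant and glutathione genes had a median of -0.16 over 18 genes, which became -0.01 without joint replicate 1. The thioredoxin reductase gene Trxr1 was at 13.30 and 13.75 with paraquat and at 12.61, 13.08 and 13.14 with both (-0.58 ± 0.23 log2, limma unadjusted p = 0.0331). Catalase (Cat, -0.38) and the methionine sulfoxide reductase gene SelR (-0.46, with 0.43 for its second probe set) also had every joint array below paraquat. Of the 18 genes, 3 lay below in this way and 1 above, against 13.8% and 5.15% of all genes. The mitochondrial superoxide dismutase gene Sod2 (-0.29, and -0.04 without joint replicate 1) and GstD1 (-0.10) had overlapping groups, and Sod1 was not analysed here. Ku80, whose product binds broken DNA ends, was high on both sides, at 8.21 and 9.63 with paraquat and at 9.16, 7.73 and 10.08 with both (0.07 ± 0.61 log2). The 12 DNA damage, apoptosis and JNK genes had a median of 0.02, heat shock proteins and co-chaperones 0.05 over 12 genes, endoplasmic reticulum stress genes -0.10 over 15 and autophagy genes -0.14 over 19. Without joint replicate 1 these 4 medians were -0.02, 0.02, -0.17 and -0.05.

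Proteasome subunits had the lowest median of the 46 lists, -0.39 log2. All 27 tested were below 0, against 60.9% of all genes, and 9 were below paraquat on every joint array, against 13.8%. With centred arrays 26 were below 0 and the median was -0.31. The shift was carried mainly by joint replicate 1, where the median distance from the paraquat mean was -0.91, against -0.23 in joint replicate 2 and -0.09 in joint replicate 3, and without it the list median was -0.19. The mean level of the 27 genes was 11.40 and 11.74 with paraquat and 10.66, 11.24 and 11.43 with both, while the control arrays had 10.84, 10.83 and 11.16. The beta subunit gene Prosbeta6 differed by -1.03 log2, and the regulatory subunit gene Rpn3 was at 11.16 and 11.40 with paraquat and at 10.08, 11.02 and 11.03 with both.

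Mitochondrial ribosomal proteins had a median of -0.36 over 69 genes, with 65 below 0 (57 with centred arrays) and 19 below paraquat on every joint array, against 60.9% and 13.8% of all genes. Here too joint replicate 1 differed from its partners, with medians of -0.81, -0.09 and -0.13 in joint replicates 1, 2 and 3, and without it the median was -0.12. The gene mRpL11 was at 9.76 and 9.63 with paraquat and at 8.22, 9.33 and 9.19 with both. Oxidative phosphorylation subunits had a median of -0.18 over 48 genes and cytosolic ribosomal proteins -0.12 over 30, which became -0.03 and -0.05 without joint replicate 1.

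**Figure D4:**
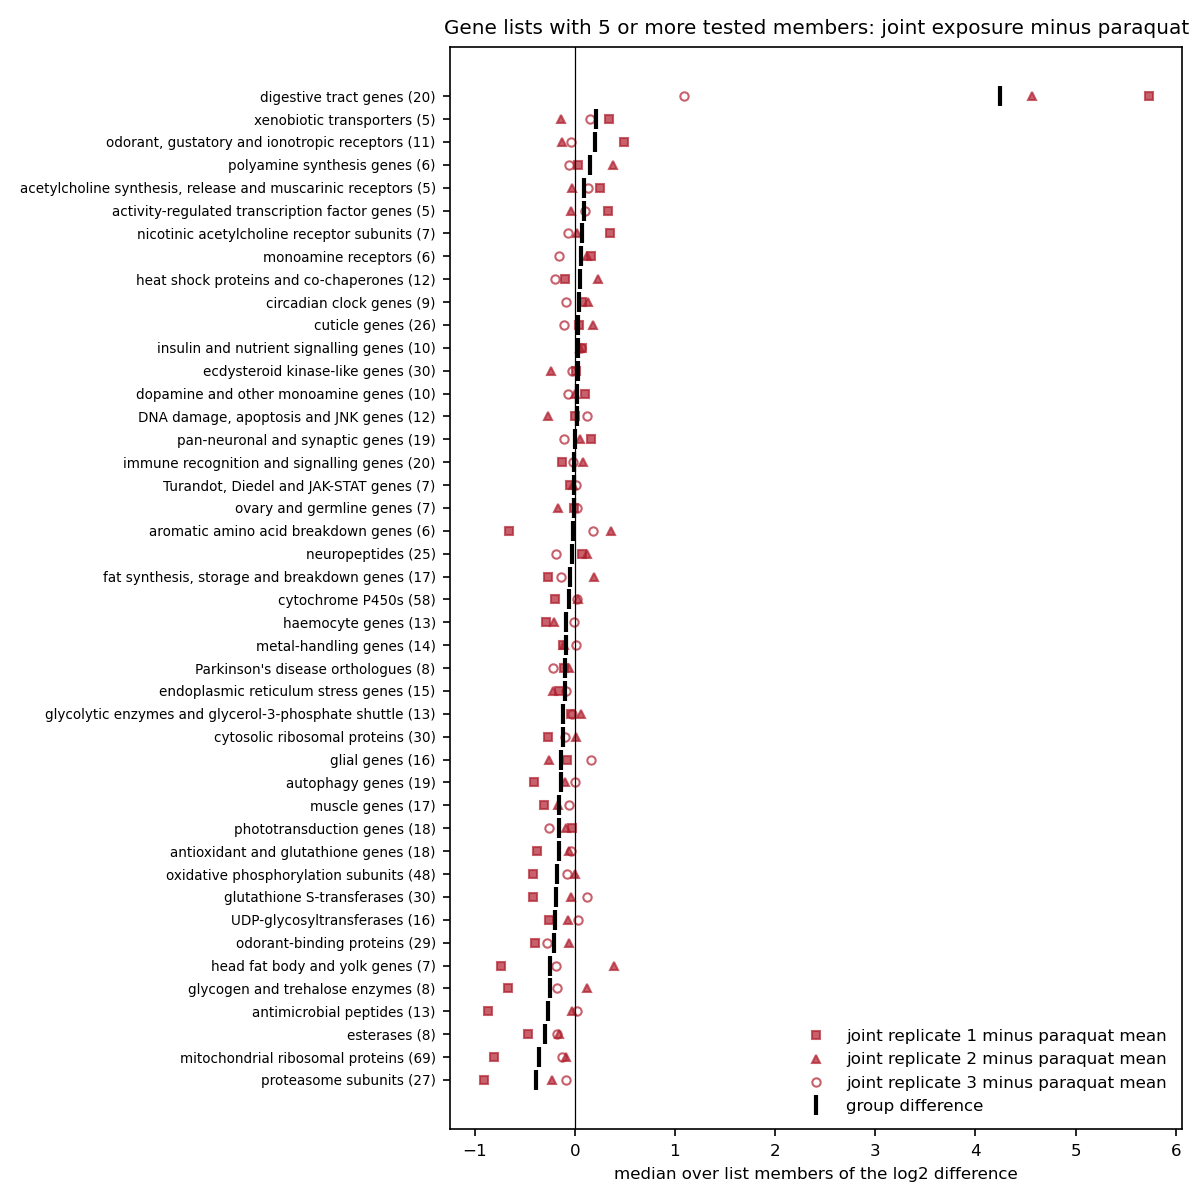
Median log2 difference from the paraquat mean over the tested members (number in brackets) of each list with 5 or more tested members, for each joint array (symbols) and for the group difference (black bars). Digestive tract genes, of which 6 of 20 passed the low-value filter only through the joint arrays, have a median of 4.25 and values of 5.73, 4.56 and 1.09 on the 3 joint arrays. The medians of the other lists lie between -0.39 and 0.21.

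Sensory and neuronal genes had no calls. Odorant-binding proteins, which carry odorants in the fluid of the sensilla, had 24 of 29 differences below 0 (23 with centred arrays), against 60.9% of all genes. Their median was -0.21 (-0.19 without joint replicate 1), and 8 genes were below paraquat on every joint array, against 13.8% of all genes. Obp56d was at 14.33 and 14.27 against 12.89, 14.13 and 13.58 (-0.76 log2, and -0.44 without joint replicate 1), and Obp99b at 15.63 and 15.78 against 14.99, 15.00 and 15.42 (-0.57). The 18 phototransduction genes had a median of -0.16, with 5 below paraquat on every joint array (13.8% of all genes were), among them ninaG (-0.80), which acts in rhodopsin chromophore synthesis, and the scaffold gene inaD (-0.43). Odorant, gustatory and ionotropic receptors had a median of 0.20 over the 11 of 166 that passed the filter, which became -0.02 without joint replicate 1. Medians were -0.03 for 25 neuropeptides, 0.00 for 19 pan-neuronal and synaptic genes, -0.14 for 16 glial genes and 0.04 for 9 circadian clock genes. The glial transcription factor gene repo was below paraquat on every joint array, at 10.42, 11.31 and 11.17 against 11.71 and 11.65 (-0.72 log2, and -0.44 without joint replicate 1). It was 1 of 2 such genes among the 16 glial genes, against 13.8% of all genes, and 6 of the 16 were above 0. The glial gene axo went the other way, with 0.67 log2 (0.30 without joint replicate 1) and overlapping groups.

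Immune and tissue genes likewise had no calls. Antimicrobial peptides had a median of -0.27 over 13 genes and -0.02 without joint replicate 1, where Drs, the antifungal peptide drosomycin, was at 13.30 and 13.57 with paraquat and at 11.76, 13.38 and 12.24 with both. Immune recognition and signalling genes had a median of -0.01 over 20 genes (0.05 without joint replicate 1), and their largest value was PGRP-SC2, a peptidoglycan-degrading amidase gene, with 4.94 and 4.48 against 7.03, 7.46 and 4.61 (1.65 log2, limma unadjusted p = 0.0368). Turandot, Diedel and JAK-STAT genes had -0.01 over 7 genes and haemocyte genes -0.09 over 13. The collagen IV genes Col4a1 (-0.72) and vkg (-0.46), which blood and fat body cells make, were below paraquat on every joint array. Of the 13 haemocyte genes, 3 lay below in this way and 1 above, against 13.8% and 5.15% of all genes. Muscle genes had a median of -0.16 over 17, and 7 were below paraquat on every joint array (13.8% of all genes were), among them Mlp60A (14.03 and 14.24 against 13.29, 13.69 and 13.62, -0.60 log2, unadjusted p = 0.0111). Head fat body and yolk genes had -0.25 over 7 genes (0.10 without joint replicate 1), ovary and germline genes -0.01 over 7 and cuticle genes 0.03 over 26, where Cpr66D was higher on every joint array (1.28 log2).

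Among the metabolic genes named, Odc2 had the smallest p. This ornithine decarboxylase gene was at 4.77 and 4.07 with paraquat and at 5.41, 6.60 and 5.21 with both, higher on every joint array (1.32 ± 0.44 log2, limma unadjusted p = 0.0138). Without paraquat its difference was 1.26 log2, from 6.55 to 7.44 on control arrays to 7.88 to 8.32 on nicotine arrays. The 6 polyamine genes had a median of 0.15. Gpdh1, the glycerol-3-phosphate dehydrogenase gene, was at 12.82 and 12.78 with paraquat and at 13.21, 13.17 and 12.89 with both (0.29 ± 0.18 log2), and its 4 probe sets ran from -0.05 to 0.86. Glycolytic and glycerol-3-phosphate shuttle genes had a median of -0.12 over 13, glycogen and trehalose enzymes -0.25 over 8, insulin and nutrient signalling genes 0.03 over 10 and aromatic amino acid breakdown genes -0.02 over 6. Without joint replicate 1 these 4 medians were 0.04, 0.00, 0.02 and 0.26. Fat genes had -0.05 over 17 (0.04 without joint replicate 1), and the diacylglycerol acyltransferase gene Dgat2 was below paraquat on every joint array, at 6.05, 5.10 and 7.34 against 7.37 and 7.97 (-1.50 ± 0.71 log2), above its control range of 2.11 to 4.14.

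Nicotine had no called effect without paraquat either, with 0 of 9104 probe sets (0%) called and 179 (1.97%) at an unadjusted p below 0.05, 104 higher (1.14%) and 75 lower (0.824%). No probe set was called for the interaction, the difference between the nicotine differences with and without paraquat (0%), and the smallest adjusted p was 1.0 in both. At an unadjusted p below 0.05 the interaction had 112 probe sets (1.23%), 33 above 0 (0.362%) and 79 below 0 (0.868%), which became 56 and 58 with centred arrays. The sign is that of the difference with paraquat minus the difference without it. It does not say which of the 2 differences was larger in size. By probe sets, every nicotine array lay above every control array in 314 (3.45%) and below in 217 (2.38%). Across 7316 genes the difference with paraquat and the difference without it, which share no arrays but were normalized together, had a Pearson correlation of 0.234, and 61.0% of genes had the same sign. Genes do not vary independently, so these describe the arrays. With paraquat, 377 genes (5.15%) were above and 1013 (13.8%) below in all joint arrays, and without paraquat 279 (3.81%) and 167 (2.28%) in all nicotine arrays. Of these, 28 were above in both and 32 below in both, while 6 were above with paraquat and below without it, and 16 the reverse.

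**Figure D5:**
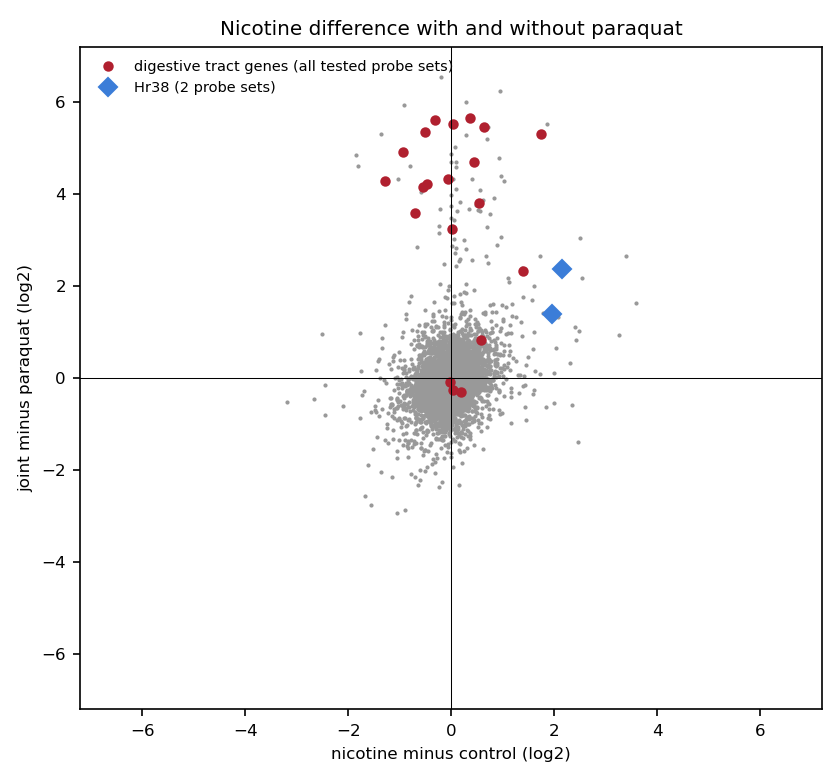
Log2 difference of nicotine without paraquat (nicotine minus control, horizontal axis) against nicotine with paraquat (joint minus paraquat, vertical axis) for each tested probe set, both axes to the same scale. Digestive tract genes (red) have a median of 4.25 with paraquat and 0.02 without, and both Hr38 probe sets (blue) are above 1 log2 on both axes. Of the 20 digestive tract genes, 6 passed the low-value filter only through the joint arrays, so part of their contrast was built into the selection.

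The digestive tract list had a median of 4.25 log2 with paraquat, 0.02 without and 4.34 for the interaction, but none of its members was called for the interaction, and Mal-A1 had the smallest unadjusted p among them (3.28 log2, limma unadjusted p = 0.0437). Of its 20 tested members, 6 passed the low-value filter only through the joint arrays. Part of the contrast between these medians was therefore built into the selection. The 5 genes with the smallest interaction p were tkv (-1.45 log2), CG15629 (-1.89), the odorant-binding gene Obp56f (-1.48), CG31125 (-1.08) and Utx (0.84), which encodes a histone demethylase. Of these, tkv passed the low-value filter only through the paraquat arrays, so part of its interaction was built into the selection. Obp56f was at 5.46 and 6.10 with paraquat and at 5.38, 5.80 and 5.26 with both, while it was at 4.76 to 5.68 in control and at 6.24 to 6.61 with nicotine alone. The 5 genes with the smallest p for nicotine without paraquat had smaller differences with paraquat, but they were chosen by that p. Smaller differences in the other comparison follow from such a choice, so no effect of paraquat is read from them. Obp99b differed by -1.16 log2 without and -0.57 with paraquat, CG15449 by -1.46 and 0.17, squ, a piRNA pathway gene, by -0.96 and -0.12, the protease gene Sb by 0.89 and 0.13, and CG13305 by 2.41 and 0.82. None of these pairs differed by an adjusted test, the adjusted interaction p being 1.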

How the data were processed

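Heads of 20 females per sample were hybridised to Affymetrix Drosophila arrays. The authors deposited log2 values, made with GCRMA per the submitters' processing notes (background adjustment, quantile normalization, probe summary), whose version is not given in the sources used here. Values of the 18952 probe sets ran from 2.11 to 16.2 over 11 arrays, 39.9% lay within 0.01 of the minimum, and 0 array pairs were identical. The number of arrays limits the precision.

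After dropping 183 control probe sets and those at log2 4 on fewer than 2 arrays, 9104 remained. RefSeq's Drosophila gene table updated the annotation's symbol for 7776 of them, 24 kept the old symbol, 228 named several genes and 1076 named none. 1 mean per group was fitted to all arrays with limma 3.58.1 in R 4.3.3 (lmFit, eBayes, 7 residual and 2.48 prior degrees of freedom). Tests were two-sided with Benjamini-Hochberg adjustment over the 9104, and an adjusted p below 0.05 was a call. Errors after ± are standard errors. A fold is "at least" where all arrays of a group lay below log2 4, with lower values raised to log2 4. The fit was tested on simulated data.

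Members, the 46 gene lists and tests were chosen with earlier results of these data known. Lists use each gene's brightest probe set (7316 genes). Since none was called, the text names in each direction the 12 single-gene probe sets of smallest p whose groups do not overlap, with a difference of at least 1 log2 and a group mean at log2 4 or above. It names the 5 of smallest p for nicotine without paraquat and the interaction, up to 3 members per list by p, and genes of nicotine reception and breakdown, dopamine and oxidative stress. Members outside that rule are named for comparison.

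Alternatives changed the low-value filter (none, or log2 6), the variance prior (trended and robust), the arrays fitted, centring, array weights, a replicate block, an RNA quality covariate (3' minus 5' control signals), and left out each array.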

Additional observations from a re-analysis of the deposited data

How the results depend on the processing

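The count of 0 called probe sets for nicotine with paraquat held under a filter at log2 6, a robust variance trend, only the arrays compared, centred arrays, array weights and the 3' minus 5' covariate, with smallest adjusted p of 0.932 to 0.993. Leaving out 1 array at a time gave 0 to 32 calls for nicotine with paraquat (32 without joint replicate 3, 1 without joint replicate 1), 0 to 2 for nicotine without paraquat (2 without nicotine replicate 2) and 0 to 21 for the interaction (21 without joint replicate 3, 2 without nicotine replicate 2 and 1 without joint replicate 1). Counts at an unadjusted p below 0.05 for nicotine with paraquat ran from 120 without paraquat replicate 3 to 745 without joint replicate 2. With no low-value filter 4 probe sets were called for nicotine with paraquat and 3 for the interaction. The 4 are of RpS29, SkpB, CG14691 and Uros1, with differences of -0.06 to -0.34 log2 and every value below log2 4. Array weights gave 20 calls for nicotine without paraquat, 12 higher and 8 lower. The cause of these changes was not tested.

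The replicate block, with the replicate number of the titles as a factor, gave 0 calls in each of the 3 comparisons and 236 probe sets at an unadjusted p below 0.05 for nicotine with paraquat. The joint and paraquat groups share only the numbers 2 and 3, whose deviations correlated at 0.0521 and 0.425. Between control and nicotine arrays the same numbers correlated at 0.0416, 0.27 and 0.109, against -0.192 to 0.0291 for unlike numbers. The labels do not say whether the numbers pair the samples, so pairing is not settled. For the 24 genes named by p, 444 results kept their direction and their side of the threshold over the alternatives, and 4 passed it (MtnC, mex1, CG12728 and Rpt3R, all without joint replicate 3). Of these genes, mex1 passed the low-value filter only through the joint arrays, and CG12728 and Rpt3R only through the paraquat arrays. Centring turned the sign of 7 of the 46 list medians, and leaving out joint replicate 1 turned 13 of the 45 other than the digestive tract list. Values below log2 4 are near background, so differences of genes there are bounds.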
